A study of Mus musculus with 2 samples.

Results

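The clustered protocadherin genes of the mouse are described here by the accessibility of their starts and of the DNA around them. Members were the protein-coding gene models of GENCODE M21 on chromosome 18 whose symbols place them in the Pcdha, Pcdhb or Pcdhg cluster. The rule found 57 of 21938 protein-coding gene models, with no use of any measured value. They were 12 alternate Pcdha genes, 22 Pcdhb genes, 12 Pcdhga genes, 6 Pcdhgb genes and the 5 C-type genes Pcdhac1, Pcdhac2, Pcdhgc3, Pcdhgc4 and Pcdhgc5. The 57 models carry 56 distinct symbols, since 2 models are both named Pcdha11. All lie on the forward strand, between 36930184 and 37841873 on chromosome 18 (mm10, 1-based positions). Pcdhgb8 is annotated as a polymorphic pseudogene and was therefore not a member.

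Clustered protocadherins are cadherin-like adhesion proteins of the neuronal surface, and the combination that a neuron makes is thought to let it tell its own branches from those of other cells. In the Pcdha and Pcdhg clusters each gene has its own promoter and its own large variable exon, which is spliced to constant exons shared by the cluster, whereas Pcdhb genes consist of a single large coding exon. Alternate genes are known to be chosen at random in each neuron and allele, with the insulator protein CTCF binding at promoters and variable exons, while C-type genes are known to be expressed more uniformly. Enhancers are known inside and downstream of the Pcdha constant part and downstream of the Pcdhg cluster.

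The tissue was labelled as a layer of hippocampus and came from male B6CASTF1/J mice, an F1 cross between C57BL/6J and CAST/EiJ, aged 10 days. There was 1 group of 2 libraries, numbered by the labels as biological replicates 1 and 2, each from a tissue sample of 3 males, with no treatment named. DNase-seq was used, which maps DNA that the nuclease DNase I can reach. For each library the authors deposited a shorter and a longer list of accessible regions with a height for each, a list of footprints, stretches of a few bases shielded from the enzyme, and for each base a false discovery rate of its cut rate. A start is called open where a region of the shorter list lay within 1000 bp of any annotated start of the gene model.

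The shorter lists held 54546 regions in replicate 1 and 74278 in replicate 2, and the longer lists 94187 and 131213. No read depth came with them (not given in the sources used here). Replicate 2 had more regions, and the part of this in the differences between the libraries was not tested. All 4 neuronal marker genes were open in both libraries, and of 5 markers of hippocampal excitatory neurons 4 were open in replicate 1 and 5 in replicate 2. All 3 genes of the oligodendrocyte lineage were open in both, 3 and 2 of 4 astrocyte genes, and 0 and 1 of 2 microglial genes. The endothelial markers Cldn5 and Pecam1 and the liver and muscle genes Alb and Acta1 had no region in the shorter lists. In such a mixed tissue, a site open in few cells and a site weakly open in many cannot be told apart.

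Few members were open. In replicate 1, 5 of the 57 gene models (8.77%) had a region of the shorter list near a start, beside 59.6% of all coding gene models. In replicate 2 the count was 12 of 57 (21.1%), beside 64.0%. All 5 members open in replicate 1 were open in replicate 2 as well, beside 59.3% of coding models open in both libraries and 64.4% in either. Such recurrence was general: of the 13082 coding models open in replicate 1, 13008 (99.4%) were open in replicate 2. The longer list raised the counts to 15 (26.3%) in replicate 1, with a background of 64.9%, and to 25 (43.9%) in replicate 2, with a background of 68.4%. The 15 were again all found in replicate 2, as were 99.3% of coding models with such a region in replicate 1. Of all coding models, 64.4% had one in both libraries and 68.9% in either. In the end 32 members had no region in either list of either library.

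The classes differed widely in their counts. None of the 12 alternate Pcdha starts was open in either library, and the longer list gave 0 in replicate 1 and 1 in replicate 2. None of the 6 Pcdhgb starts was open either, again with 0 and 1 in the longer list. Of 12 Pcdhga starts, 1 and 2 were open, and the longer list gave 2 and 3. Of 22 Pcdhb starts, 1 and 5 were open, but the longer list gave 9 in replicate 1 and 15 in replicate 2. The C-type genes stood at the other end, with 3 and 5 of 5 open and 4 and 5 in the longer list. Their share in the shorter list of replicate 1, 60.0%, was next to the background of 59.6%. In replicate 2 it was 100% beside 64.0%. In replicate 2 the Pcdhb share in the longer list, 68.2%, was thus next to the background of 68.4%, while in the shorter list it was 22.7% beside 64.0%.

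**Figure D1:**
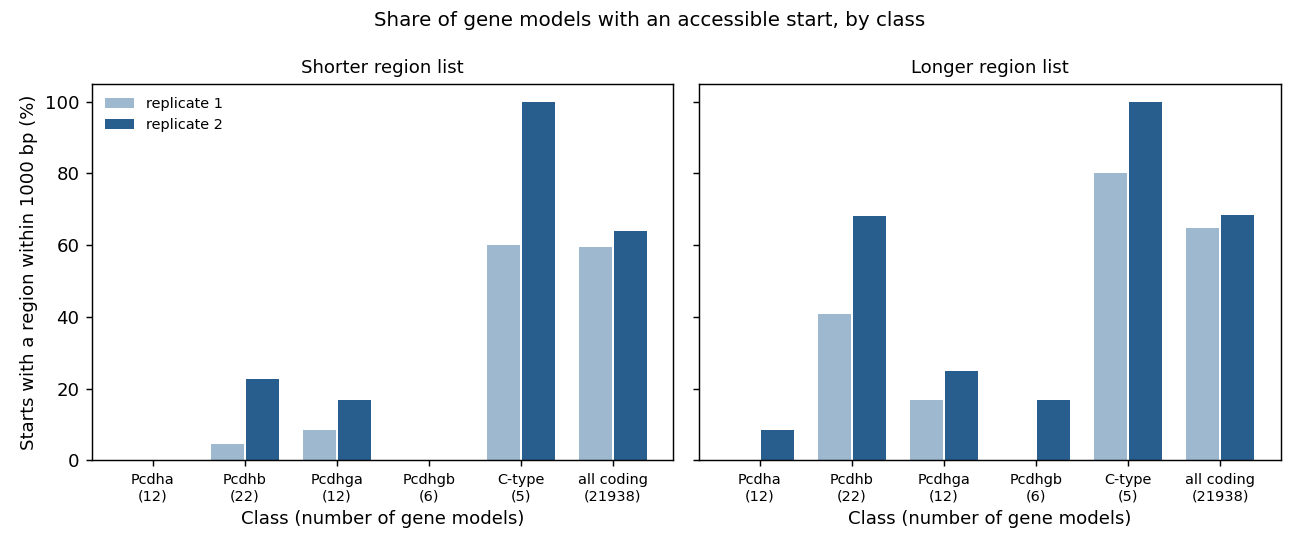
Percent of gene models with an accessible region within 1000 bp of a start, for each class of clustered protocadherin genes and for all coding gene models, in the shorter list (left) and the longer list (right). Light bars are replicate 1 and dark bars replicate 2, with the number of models under each class. Pcdha and Pcdhgb bars are at 0 in the shorter list, C-type bars reach 60.0% and 100%, and Pcdhb bars rise from 4.55% and 22.7% to 40.9% and 68.2% between the lists.

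Of the C-type genes, Pcdhgc3 had the greatest region height of any member in both libraries. Its start at 37806364 lay inside a region from 37806181 to 37806460 in replicate 1 and to 37806480 in replicate 2. The height was 3.61 in replicate 1 and 3.85 in replicate 2, at percentiles 67.9 and 61.7 of all open coding gene models. Only Pcdhgc3, and Pcdhac1 in replicate 2, exceeded the median height of open coding gene models, which was 2.59 in replicate 1 and 3.14 in replicate 2.

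Pcdhac1, the C-type gene directly after the alternate Pcdha genes, had a height of 1.92 in replicate 1 and 3.48 in replicate 2. Its percentiles were 35.8 and 55.7, so the libraries placed it on different sides of the middle. Its region ran from -152 to 67 bp around the start at 37090013 in replicate 1, where negative values are before the start. Pcdhac2, whose start lies at 37143503, was lower, with 0.962 and 1.28. In replicate 1 its shorter-list region was 100 bp wide, and the longer list added 1 of 660 bp, from 438 to 1097 bp. In replicate 2 its region ran unbroken over 1040 bp, from -62 to 977 bp.

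The last C-type genes of the Pcdhg cluster differed between the libraries. Pcdhgc4 had no region of the shorter list in replicate 1, where the longer list gave 1.35, and had 1.61 in replicate 2. Pcdhgc5 had no region in either list of replicate 1, and 1.21 in replicate 2. Both were therefore open in replicate 2 alone. Pcdhgc5 is the C-type gene with the lowest CpG ratio, 0.233, whereas that of the others lay between 0.564 and 0.797. (The CpG ratio is the observed number of CpG dinucleotides over the number that the base composition would give, within 500 bp of the start.)

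**Figure D2:**
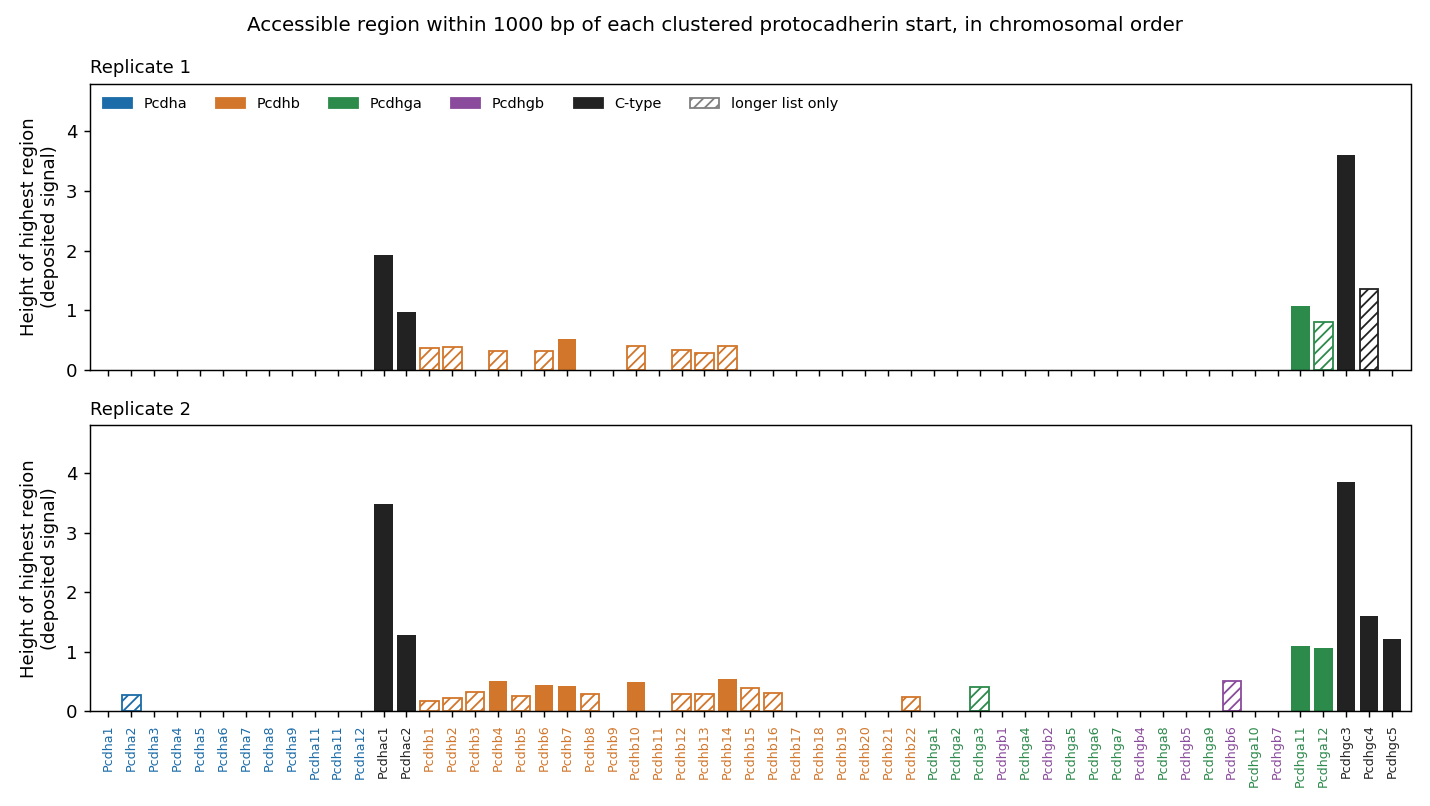
Height (deposited signal) of the highest accessible region within 1000 bp of each of the 57 gene models, in chromosomal order from left to right, replicate 1 above and replicate 2 below. Filled bars are regions of the shorter list, hatched bars are models with a region in the longer list only, and no bar means no region in either list. C-type genes have the tallest bars (3.61 and 3.85 for Pcdhgc3), Pcdhb bars reach 0.509 and 0.546, and all but Pcdha2 of the alternate Pcdha genes are empty in both libraries.

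Among the alternate genes, Pcdhga11 and Pcdhga12 had the highest regions, and they are the last Pcdhga genes before the C-type genes. Pcdhga11 was open in both libraries with nearly the same height, 1.07 in replicate 1 and 1.10 in replicate 2. Pcdhga12 was open in replicate 2 alone, with 1.06, and had 0.798 in the longer list of replicate 1. Its region did not cover the outermost of its 2 annotated starts: it lay 252 to 420 bp after that start in replicate 2. The pseudogene Pcdhgb8, which lies between them, had a height of 0.808 in replicate 2 and no region in replicate 1.

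The remaining Pcdhga and Pcdhgb starts, 16 of 18, were not open in either library. In replicate 2 the longer list added Pcdhga3 with 0.404 and Pcdhgb6 with 0.519. Neither had a region in replicate 1. Pcdhga1, Pcdhga2 and Pcdhga4 to Pcdhga10 had no region in any list. The same held for Pcdhgb1, Pcdhgb2, Pcdhgb4, Pcdhgb5 and Pcdhgb7.

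Pcdhb regions were low and recurred from gene to gene. Pcdhb7 was the only Pcdhb gene open in both libraries, with heights of 0.509 and 0.421, at percentiles 1.61 and 1.00 of open coding gene models. Pcdhb14, Pcdhb4, Pcdhb10 and Pcdhb6 were open in replicate 2 alone, with heights of 0.546, 0.513, 0.486 and 0.437. In the longer list of replicate 1 these had 0.396, 0.308, 0.396 and 0.314. These 4 were grouped by being open in replicate 2 alone, so lower values in replicate 1 are partly fixed by that choice. In replicate 2 they lay at percentiles 1.16 to 2.60 of open coding gene models.

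A further 10 Pcdhb genes had a region in the longer list only. Pcdhb1, Pcdhb2, Pcdhb12 and Pcdhb13 had it in both libraries, with heights of 0.283 to 0.383 in replicate 1, and of 0.169 to 0.295 in replicate 2. Pcdhb3, Pcdhb5, Pcdhb8, Pcdhb15, Pcdhb16 and Pcdhb22 had it in replicate 2 alone, from 0.251 to 0.393. The 7 Pcdhb genes with none were Pcdhb9, Pcdhb11 and the run from Pcdhb17 to Pcdhb21, which follow each other on the chromosome. Over all 22 genes the median height of those with a longer-list region was 0.358 and 0.317, and the highest was 0.509 and 0.546.

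Alternate Pcdha genes gave almost nothing. Pcdha2 alone had a region, of height 0.279, in the longer list of replicate 2. The other 11 models, among them Pcdha1, Pcdha3 and Pcdha4, had no region in any list and no footprint within 1000 bp of a start. Nor did any of these 11 have a base with a false discovery rate of 0.05 or lower in that window, in either library.

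Over all members with an open start the median height was 1.07 (n = 5 gene models) in replicate 1 and 1.08 (n = 12) in replicate 2. The mean of these was 1.08 ± 0.00480 (SD, n = 2). The medians are over different sets of models, so this SD does not measure how well the height of a given gene recurred. The medians over all open coding gene models were 2.59 and 3.14. In the longer list the members' medians fell to 0.396 and 0.421, beside 2.39 and 2.93. Height alone did not set which members were in the shorter list: the lowest open member of replicate 2 was Pcdhb7 at 0.421, below Pcdhgb6 at 0.519, which was in the longer list only. In replicate 1 the lowest was Pcdhb7 at 0.509, and Pcdhgc4 at 1.35 was outside.

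Rates for single bases were listed up to 0.05. A base at 0.05 or lower lay within 1000 bp of 20 of 57 starts in replicate 1 (background 65.7%) and of 28 in replicate 2 (background 69.3%). At the stricter 0.001 the counts were 5 (background 60.4%) and 13 (background 64.6%). The lowest rate of any member was at Pcdhac1, with 8.3e-21 in replicate 1 and 7.09e-41 in replicate 2. At Pcdhgc3 it was 2.65e-13 and 5.26e-20, and at Pcdhgc5 0.0356 and 2.53e-10. Pcdhgc5 therefore had weak bases in replicate 1, 42 of them at 0.05 or lower, where the region lists had none.

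In replicate 2 each C-type gene had more such bases than any alternate gene. In replicate 1 this held for Pcdhac1, Pcdhac2 and Pcdhgc3, but not for Pcdhgc4 or Pcdhgc5. Pcdhgc4 had 1793 bases at 0.05 or lower around its 3 annotated starts in replicate 2 and 221 in replicate 1. Pcdhgc3 had 931 and 1444, and Pcdhac2 had 1133 and 1124. The most at any Pcdhb gene was 240 in replicate 1 and 623 in replicate 2, both at Pcdhb1. Pcdhga1, Pcdhga7 and Pcdhga8 had 10, 16 and 25 such bases in replicate 1 and 0 in replicate 2, so not every weak signal was found again in the library with more regions.

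Most regions at the alternate genes, largely those of Pcdhb genes, sat just before the outermost start. Longer-list regions of alternate members had their centres at a median of -33.5 bp in replicate 1 (11 regions) and -30.5 bp in replicate 2 (22 regions). Of these, 9 of 11 and 17 of 22 had centres between -200 and 50 bp. Pcdhb genes held 9 of the 11 and 16 of the 22, so the medians are mainly theirs. The region of Pcdhga11 was centred at -30.5 and -40.5 bp, and that of Pcdhga12 at 354 and 330 bp. Regions of alternate members were narrow, with median widths of 160 and 158 bp. C-type regions, 8 in replicate 1 and 10 in replicate 2, were centred later when pooled, at a median of 430 and 294 bp after the start. Pcdhac1, Pcdhac2, Pcdhgc3, Pcdhgc4 and Pcdhgc5 each had a further region centred after the outermost start in at least 1 library. The highest region of Pcdhac1 was centred at -42.5 bp in both libraries, and that of Pcdhgc3 at -43.5 and -33.5 bp. That of Pcdhgc5 in replicate 2 was at -172 bp. Those of Pcdhac2 (128 and 458 bp) and Pcdhgc4 (324 and 322 bp) lay after the start.

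At base resolution, Pcdhb starts with a base at 0.05 or lower were most frequent at -100 to -81 bp in replicate 1 (31.8% of starts) and at -20 to -1 bp in replicate 2 (60.2%). Over all coding gene models the peak lay at 0 to 19 bp in replicate 1 (51.5%) and 20 to 39 bp in replicate 2 (56.7%). In replicate 2 the Pcdhb peak was thus next to that of all coding genes, but the mean over the 1000 bp before and after the start was 8.71% and 5.73% of Pcdhb starts, beside 27.9% and 40.4%. Pcdhga and Pcdhgb starts together peaked at 10.6% and 20.8%, and Pcdha starts at 0 and 8.33%.

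**Figure D3:**
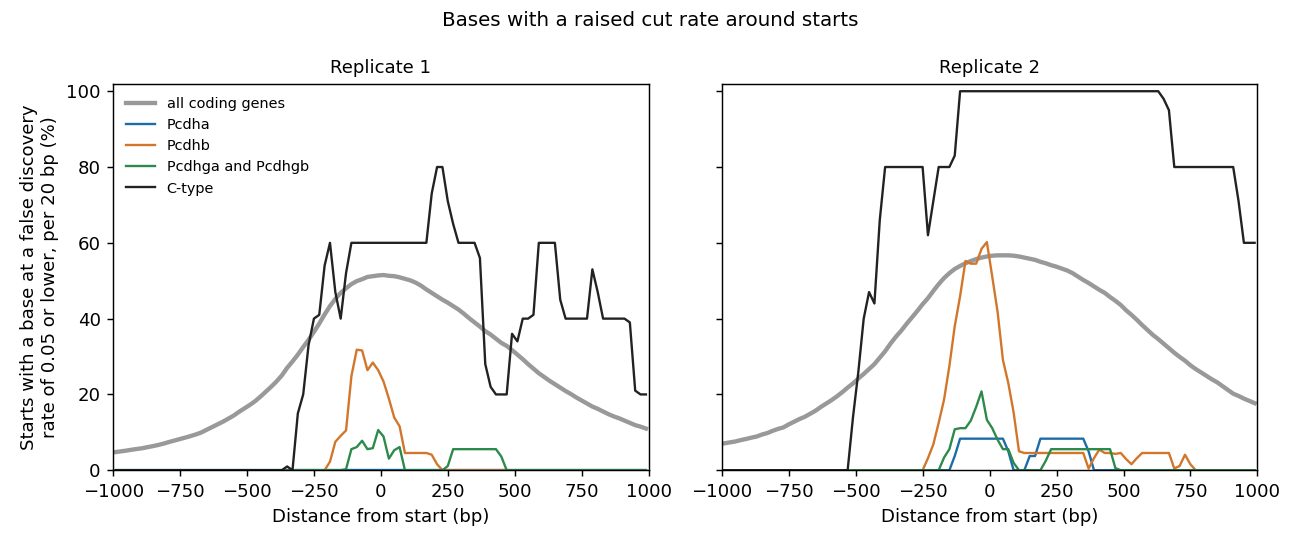
Percent of starts with a base at a false discovery rate of 0.05 or lower, averaged in bins of 20 bp, against distance from the outermost start in bp, replicate 1 left and replicate 2 right. Lines are the classes of clustered protocadherin genes (Pcdhga and Pcdhgb together) and, in thick grey, all coding gene models. The Pcdhb line forms a narrow peak of 31.8% and 60.2% next to the start, the C-type line (5 genes) is broad and reaches 80.0% and 100%, and the Pcdha line is at 0 in replicate 1.

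Footprints were few. At least 1 lay within 1000 bp of 12 member starts in replicate 1 (background 63.5%) and of 24 in replicate 2 (background 67.3%), with 11 in both (background 63.0%). In total 41 and 98 footprints were near members, a mean of 0.719 and 1.72 for each model beside 4.79 and 6.59 for all coding models. Pcdhgc3 had 11 and 9, Pcdhac2 8 and 13, and Pcdhac1 7 and 5. Pcdhgc4 and Pcdhgc5 had 0 in replicate 1 and 10 and 12 in replicate 2. Of the Pcdhb genes, 8 had a footprint in replicate 1, with 1 to 3 each.

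Binding sites for CTCF were searched as letters, since CTCF is known to bind alternate promoters and variable exons. A CTCF consensus of 14 letters, searched on both strands, was found within 1000 bp of 6 of the 57 members (10.5%), beside 2.13% of coding gene models. All 6 were alternate Pcdha genes: Pcdha1, Pcdha4, Pcdha6, Pcdha7, Pcdha8 and Pcdha12. Each match lay in the coding part of the variable exon, on the strand of the gene, 537 to 581 bp after the start. From 250 bp before to 50 bp after the start the consensus was found at 0 of 57 members, beside 0.324% of coding gene models. Only exact matches were counted, so a site that departs from the consensus at any letter would be missed.

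None of these 6 exonic matches lay in a region of the shorter or longer list or in a footprint, in either library. Over the whole genome the consensus had 6945 matches, of which 52.5% lay in a shorter-list region in replicate 1 and 60.0% in replicate 2. For the 486 matches within 1000 bp of starts of coding genes outside the clusters the shares were 63.6% and 73.7%. Exons of Pcdha genes resemble each other, and the part of this was not tested. Within 100 bp of the matches at Pcdha7 and Pcdha8 only 26.6% of 32-base words occur at a single place in the assembly. Around the matches of Pcdha1, Pcdha6 and Pcdha12 the share was 100%, and at Pcdha4 it was 97.3%, and these 4 also had no region.

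A looser core of the motif, which fixes fewer of its letters and was also searched on both strands, was found within 1000 bp of 27 members (47.4%), beside 53.3% of coding models. It occurred at all 12 Pcdha models, with 19 of 21 matches in the coding exon, but at 2 of 22 Pcdhb genes. Near the start, from 250 bp before to 50 bp after, it was found at 4 members (7.02%), beside 9.44%. At Pcdhac1 the looser core lay 72 bp before the start, in a region and in a footprint in both libraries. The Pcdha matches lay in no region in replicate 1 and 1 of 21, at Pcdha2, lay in a longer-list region in replicate 2.

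A shorter word was chosen after the member sequences had been examined for words that many of them share, so its frequency among members is partly fixed by that choice. This word, GGNGGCGCT, was searched on the strand of the gene from 200 bp before to 50 bp after the start, and its letters can overlap the end of the CTCF consensus. It was found in 18 of 22 Pcdhb genes and in Pcdhac1, 19 members in all (33.3%), beside 1.89% of coding gene models. Of the Pcdhb genes, Pcdhb1, Pcdhb13, Pcdhb17 and Pcdhb22 lacked it. Its part CGCT was found in 49 of 57 members (86.0%), beside 48.1% of coding models.

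The centres of the 19 GGNGGCGCT matches lay between -129 and -27.0 bp, with a median of -53.0 bp. Most Pcdhb regions also sat near there. The word was searched only from 200 bp before to 50 bp after the start, so this nearness is partly fixed by the window. A longer-list region covered 8 of the 19 matches in replicate 1 and 12 in replicate 2, and a footprint touched 5 and 11. Within the Pcdhb class, 7 and 12 of the 18 genes with the word had a longer-list region, as did 2 and 3 of the 4 without it. Pcdhb9, Pcdhb11, Pcdhb18, Pcdhb19, Pcdhb20 and Pcdhb21 carried the word and had no region in any list.

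By CpG ratio the members lay near the middle of coding genes. Their median CpG ratio was 0.564, beside 0.552 for all coding gene models, although their median GC content was lower, at 44.9% beside 54.7%. Coding models were ranked by CpG ratio into 5 equal groups, the lowest of which held 1 member, open in neither library. In the next, 29.5% of coding models were open in replicate 1 and 35.3% in replicate 2, as were 1 and 4 of 13 members, so the members' count in replicate 2 was near the background there. In the middle group, 73.3% of coding models were open in replicate 1 and 80.5% in replicate 2. Of the 23 members in that group, 1 and 4 were open. In the next higher group, where 90.8% and 94.6% of coding models were open, 2 and 3 of 19 members were. The highest group held 1 member, which was open in both libraries, beside 94.9% and 97.6% of coding models. The Pcdha genes had a median ratio of 0.684 and the Pcdhb genes, which had more regions, 0.378.

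Stretches shared among the genes were measured by the share of 32-base words that occur at a single place in the assembly. From 200 bp before to 50 bp after the start the median was 100% in every class, and only 2 members, both Pcdhgb, were under 90%. Within 1000 bp it was 88.6% for Pcdha, 89.3% for Pcdhgb, 97.7% for Pcdhga, 99.6% for Pcdhb and 100% for C-type genes. The part of this in the counts was not tested, and neither was how reads of the CAST/EiJ alleles mapped.

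Away from member starts, the 3 clusters with 100 kb on each side held 14 regions in replicate 1 and 21 in replicate 2. Of the 14, 13 overlapped a region of replicate 2. None lay in the 100 kb before Pcdha1, between the starts of Pcdha1 and Pcdhac2, or in the Pcdhb cluster. In replicate 2 a region from 37144608 to 37144830, with a height of 0.683, lay over the variable coding exon of Pcdhac2. In the 100 kb after the Pcdhg cluster there were 8 in each library. Between the first start and the last end of the clusters all regions together numbered 1.21 for each 100 kb in replicate 1 and 3.29 in replicate 2, beside 2.00 and 2.73 over the genome.

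**Figure D4:**
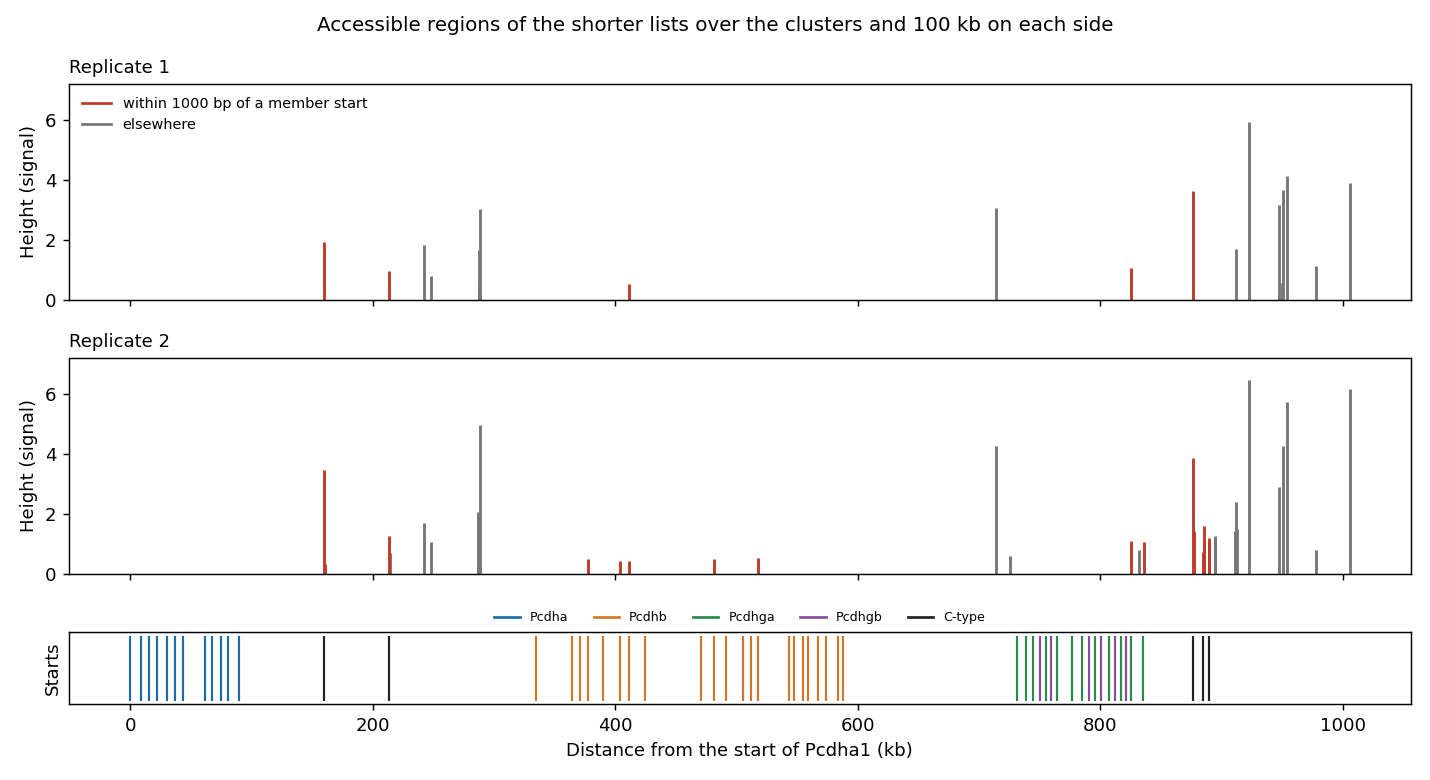
Height (deposited signal) of each shorter-list region against its distance from the start of Pcdha1 in kb, replicate 1 above and replicate 2 in the middle, with member starts coloured by class below. Red lines are regions within 1000 bp of a member start and grey lines are regions elsewhere. The tallest grey lines, up to 5.93 and 6.46, lie after the Pcdhg cluster, and a group with heights up to 3.02 and 4.97 lies between the Pcdha and Pcdhb clusters, while the Pcdha starts have no line.

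Here the Pcdha constant part runs from the start of Pcdhac2 to the end of the cluster. It holds the variable exon of Pcdhac2 and the exons common to all Pcdha transcripts, and 2 regions in it were shared. The region from 37172281 to 37172480 had heights of 1.83 and 1.70 and lay at the start of the annotated gene Gm38097. The region from 37178456 to 37178634 had 0.786, and 1.07 in replicate 2, and lay at the start of Gm10544. Both were higher than any region at an alternate Pcdha start.

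Between the Pcdha and Pcdhb clusters, 3 shared regions lay close together, 29.7 to 30.6 kb past the end of the Pcdha cluster. They overlapped no annotated exon, but introns of noncoding genes were not searched. The first, from 37217361 to 37217560 in replicate 1, had heights of 1.66 and 2.05. The middle one, starting at 37217741 in replicate 1, had 0.597 and 1.13. The third, from 37218241 to 37218460, was the highest with 3.02 and 4.97, at percentiles 96.0 and 98.7 of all regions away from annotated starts. None held a CTCF consensus match, and the first held the looser core. Identity with the known enhancer downstream of the Pcdha constant exons was not tested.

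Between the Pcdhb and Pcdhg clusters the only shared region was at the start of Taf7, a gene for a subunit of the general transcription factor TFIID, with heights of 3.06 and 4.28. In the Pcdhg constant part, from the start of Pcdhgc5 to the end of the cluster, no region was shared in the shorter list. In that list replicate 2 alone had 3 there, with heights of 1.25, 1.17 and 1.42. The first and second lay within 1000 bp of a start of the annotated gene Gm38182. The second lay over a constant coding exon and the third over the shared untranslated end. The longer list of replicate 1 held regions that overlapped the first and the third, with heights of 1.57 and 1.37.

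Past the Pcdhg cluster, 7 regions were shared, and all but 1 lay in the gene Diaph1, which encodes an actin-nucleating formin. The highest lay 10.3 kb past the end of the cluster, from 37852161 to 37852400 in an intron of Diaph1, with heights of 5.93 and 6.46. These were at percentiles 99.7 and 99.6 of regions away from annotated starts. A region from 37883561 to 37883760 had 4.11 and 5.73 and was the only shared one with a CTCF consensus match, which lay in a footprint in both libraries. Of all regions away from starts, 10.2% in replicate 1 and 7.95% in replicate 2 held such a match.

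The region from 37880261 to 37880460 had 3.64 in replicate 1 and 4.26 in replicate 2, and the start of Diaph1 itself had 3.88 and 6.17. Each of these was as high as or higher than Pcdhgc3, the highest member start, in both libraries. Of the 7 shared regions past the cluster, those from 37877421 (3.16 and 2.90) and 37908181 (1.12 and 0.803) were higher in replicate 1, and the others in replicate 2. Among the 5 members open in both libraries it was higher at 4, and among coding gene models open in both at 11340 of 13008.

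Related genes outside the clusters are read against the 59.6% and 64.0% of coding gene models that were open in replicates 1 and 2, and against their median heights of 2.59 and 3.14. Of 12 other protocadherin genes, 10 were open in replicate 1 and 11 in replicate 2, with median heights of 2.61 and 1.66. The median was thus next to that of all open coding models in replicate 1 and below it in replicate 2. Pcdh10 had 6.07 and 5.95 and Pcdh9 had 5.65 and 6.04, both well above every clustered member. Pcdh12 had no region in either shorter list, and Pcdh20 was open in replicate 2 alone, with 1.21. Of 19 genes for proteins known to act on the clusters or on silencing of chromatin, all 19 were open in both libraries. The highest were Zfp143, a zinc finger protein, with 12.6 and 13.7, and Stag1, a cohesin subunit, with 8.92 and 11.6. Ctcf itself had 2.11 and 3.18.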

How the data were processed

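DNase-seq was compared over 2 libraries of 1 group. They carry the same donor label and each its own tissue sample, so the spread between them is that of these samples only. The assembly was mm10, per the labels. The region height is a signal that the authors deposited for each region, with the caller, its thresholds, the aligner and the depth (not given in the sources used here) unknown. The false discovery rate of each base is an adjusted p-value that the authors deposited for values up to 0.05. Footprints carry a p-value limit of 0.01 that the authors deposited in every row.

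Genes, starts and exons were from GENCODE M21. Distances, overlaps (at least 1 bp), matches on both strands and 32-base words were computed with Python 3.11.15 and numpy 2.4.6, and checked on simulated data. No test was applied. Counts of members stand beside the percent over all coding gene models. The members, lists and distances were chosen with earlier results of these data known. The words GGNGGCGCT and CGCT, the window from 200 bp before to 50 bp after the start, the grouping by CpG ratio and the counts of unique words were added after the data were seen.

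All C-type genes are named, and in other classes up to 3 open and 3 closed genes, those open in 1 library, and the 5 highest shared regions away from starts. Further members are named, or counted within their class, to account for all 57. Alternatives covered the longer list, the stronger 50% of regions, distances of 500 and 2500 bp, the outermost start, equal numbers of regions and each library alone.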

Additional observations from a re-analysis of the deposited data

How the results depend on the processing

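With 5 open members in both libraries as the base, the longer list gave 15, the stronger 50% of regions 2, and each library alone 5 to 12. Distances of 500 and 2500 bp, the outermost start and equal numbers of regions left the count at 4 or 5. For Pcdhb, with 1 open gene, the longer list gave 9, the stronger 50% and equal numbers of regions 0, and each library alone 1 to 5. For Pcdhga, with 1, the longer list gave 2, the stronger 50% gave 0 and each library alone 1 to 2. For C-type genes each library alone gave 3 to 5. Counts for Pcdha and Pcdhgb were 0 under all of these settings. The mean of the median heights, 1.08, became 0.408 in the longer list, 2.02 in the stronger 50% and 1.18 with equal numbers. Shared regions away from starts, 13, were 6 without the flanks, and each library alone had 14 to 21. Members with a footprint in both libraries, 11, were 5 when only footprints inside a region of the shorter list counted, and 12 to 24 in each library alone. The mean number of footprints, 69.5, was 39.5 inside regions and 41.0 to 98.0 in each library alone. The share with a CTCF consensus match, 10.5%, was 47.4% with the looser core, 0% in the window of 250 bp before to 50 bp after, and 33.3% for the word GGNGGCGCT, which was added after the data were seen. Causes were not tested. No paired analysis was possible because there is a single group. With 2 libraries of unknown depth, a start without a region is one where none was listed, not one shown to be closed.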
